A study of Mus musculus with 2 samples.

Results

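The cytosolic ribosomal protein genes encode the proteins of the ribosome that works in the cytoplasm. They were chosen by name: gene symbols made of Rpl or Rps, a number and at most one of the letters a, x, y, l or k with a further digit, together with the stalk genes Rplp0, Rplp1 and Rplp2 and with Rpsa. The ribosomal S6 kinases and symbols that mark pseudogenes were left out. The rule found 83 of 10778 gene symbols, 50 of the large subunit and 33 of the small subunit, on 103 assembled transcripts. Of these 83 genes, 6 were paralogue copies (Rpl3l, Rpl7l1, Rpl22l1, Rpl39l, Rps4l and Rps27l) and the other 77 are called core genes here. All 83 had a mean FPKM of at least 1, the minimum used below, and with it 9887 genes were kept.

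The tissue was brown fat of male C57BL6/J mice that were 8 to 12 weeks old. Mice of both groups received a 60% kcal fat diet for 10 days. The HFD control group had the diet without SML, and the SML group was given SML at 5 mg per kg body weight into the peritoneum. The series title names sesaminol, a lignan from sesame, and SML is the only name in the labels. Each group was 1 library, with no chow-fed group among the samples used here, and the labels do not say how many animals stand behind a library. With 1 library a group there is no replicate check, no test and no p-value, and each difference below is one between these libraries. A lower level in whole tissue can be fewer cells of a type or less RNA per cell, and these cannot be told apart.

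A cytosolic ribosome joins a small subunit, which reads the mRNA, to a large subunit, which links amino acids and passes the new chain out through a tunnel. Each subunit holds ribosomal RNA and one copy of most of its proteins, so the proteins are made in similar amounts. Mammalian ribosomal protein mRNAs typically begin with a C followed by a run of pyrimidines (C or T in the gene), the 5′ terminal oligopyrimidine tract, through which mTORC1 and Larp1 control their translation. Brown fat cells, which burn lipid to make heat, depend on this machinery for their thermogenic proteins as any cell does.

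The start regions of 9 genes are shown because these genes were among those that differed most between the libraries, in either direction. The sequences come from RefSeq on build GRCm38.p6, run 5′ to 3′ on the gene's strand from 30 bases before the annotated start to 20 bases from it, and carry in capitals the longest unbroken run of C and T. Base 1 is the start, and there is no base 0.
Rpl14: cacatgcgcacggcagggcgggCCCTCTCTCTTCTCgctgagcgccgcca
Rpl5: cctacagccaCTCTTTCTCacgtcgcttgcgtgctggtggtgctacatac
Rpl22l1: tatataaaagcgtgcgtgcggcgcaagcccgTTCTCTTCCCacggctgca
Rps24: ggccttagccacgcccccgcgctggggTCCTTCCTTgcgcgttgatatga
Rpl4: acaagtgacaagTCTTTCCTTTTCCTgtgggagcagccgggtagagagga
Rps10: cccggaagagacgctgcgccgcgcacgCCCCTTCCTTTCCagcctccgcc
Rps15: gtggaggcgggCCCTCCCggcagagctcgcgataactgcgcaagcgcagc
Rps16: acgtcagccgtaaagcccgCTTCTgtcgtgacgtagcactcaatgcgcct
Rpl3l: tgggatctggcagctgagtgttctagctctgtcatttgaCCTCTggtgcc

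Among these, Rpl14, Rpl5, Rpl22l1, Rps24 and Rpl4 were higher in the SML library, and Rps10, Rps15, Rps16 and Rpl3l were lower. The Rpl14 region lies at chr9:120571487-120571536 on the plus strand, and its run of 14 bases spans the start from base -8 to base 6. The Rps10 region lies at chr17:27635225-27635274 on the minus strand, with a run of 13 bases from base -3 to base 10. Runs at the start were thus present in a gene that was higher and in one that was lower. The Rps24 region (chr14:24490648-24490697, plus strand, the first of 2 listed starts) has a run of 9 bases from base -3 to base 6. The Rpl22l1 region (chr3:28805478-28805527, plus strand) has 10 bases from base 2 to base 11. In Rpl5 (chr5:107900498-107900547, plus strand) and Rpl4 (chr9:64173357-64173406, plus strand) runs of 9 and 14 bases end before the annotated start. The runs are shorter in Rps15 (chr10:80292401-80292450, plus strand, 7 bases), Rps16 (chr7:28350659-28350708, plus strand, 5 bases) and Rpl3l (chr17:24727796-24727845, plus strand, 5 bases, the first of 2 listed starts). Not shown are Rpl36a and Rps3a1, higher in SML with longest runs of 5 bases, and Rpl39l, lower in SML with 9 bases. Long and short runs were thus present in both directions.

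Promoter entries were found for 62 of the 83 genes, 38 of the large and 24 of the small subunit, and 6 patterns were searched in them. An annotated start that reads C followed by 4 pyrimidines was present in 13 of the 62 genes (21%), against 3.01% of 27025 genes with an entry and 3.23% of the kept genes with one. A looser pattern, a run of at least 8 pyrimidines between 20 bases before and 30 bases after the start, was chosen after the members' starts had been seen, and was present in 34 of 62 (54.8%) against 21.5% of all genes and 21.9% of kept genes. In the 300 bases of an entry, on either strand, CCGGAAG (a core for ETS factors such as Gabpa) was present in 41.9% of the members against 9.93% of all genes and 21.6% of kept genes. The TATA box letters TATAAA were in 11.3% of the members against 15.7% and 8.64%. The Yy1 core AAGATGGC was in 9.68% against 3.19% and 5.78%, and the Sp1 core GGGCGG in 61.3% against 38.2% and 70.1%. The 34 genes with the looser run had a median difference between the libraries of 0.18 on the log2(FPKM + 1) scale, and the 28 without it had 0.01. The stricter pattern gave the opposite order, 0.06 for the 13 genes with it and 0.12 for the 49 without.

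Levels are in FPKM, which divides a transcript's fragments by its length and by library size. The 83 genes held 8.46% of all FPKM in HFD control and 9.38% of it in SML. Their own sum was 70713.1 FPKM in HFD control and 73941 in SML, and that of all kept genes was 835596 and 788171 FPKM. The higher share in SML thus came with a smaller total as well as a larger sum of these genes. By fragments, their share was 3.65% (95% exact binomial interval 3.638 to 3.659) of 12002103 in HFD control and 3.99% (3.976 to 4.002) of 8503862 in SML, where the intervals cover counting error only. The highest level was that of Rplp2, a protein of the acidic stalk that recruits elongation factors, at 3779 FPKM in HFD control and 4293 FPKM in SML. In HFD control Rpl41, the smallest ribosomal protein, came next at 2800 FPKM and Rplp1, the stalk partner of Rplp2, after it at 2516 FPKM. In SML their order was the other way round, with Rplp1 at 2620 FPKM and Rpl41 at 2463. In the small subunit Rps27 (2030 and 2111 FPKM), Rps29 (1747 and 2342 FPKM), Rps15 (2163 and 1690 FPKM), Rps2 (1583 and 1573 FPKM) and Rps14 (1733 and 1236 FPKM) were highest. Rps29 and Rps15 therefore exchanged places in the order between the libraries. Across the 77 core genes the levels of both libraries had a Spearman rho of 0.961, a description over genes of the same libraries.

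The lowest levels belonged mostly to paralogue copies and to genes split over symbols. Rpl39l was at 8.33 and 5.45 FPKM, Rpl3l at 15.4 and 1.8, Rpl30 at 21.0 and 29.8, Rpl7l1 at 33.4 and 32.2, and Rpl22l1 at 54.9 and 88.4 FPKM in HFD control and SML. The lowest 5 of the small subunit were Rps15a (57.5 and 66.0 FPKM), Rps4l (83.3 and 69.2), Rps3 (241.1 and 244.2), Rps6 (354.0 and 401.2) and Rps7 (373.0 and 467.6). Rps15a had 3779 and 3187 fragments, as many as genes of over 10 times its FPKM. Its deposited values imply a transcript of 5227 bases, the length by which its FPKM was divided. In the Rpl30 locus the main transcript carries the symbol Gm12191, at 697.75 and 868.0 FPKM. Summed, both symbols gave 718.79 FPKM for HFD control and 897.76 FPKM for SML, a count ratio of 1.232 (1.167 to 1.299).

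**Figure D1:**
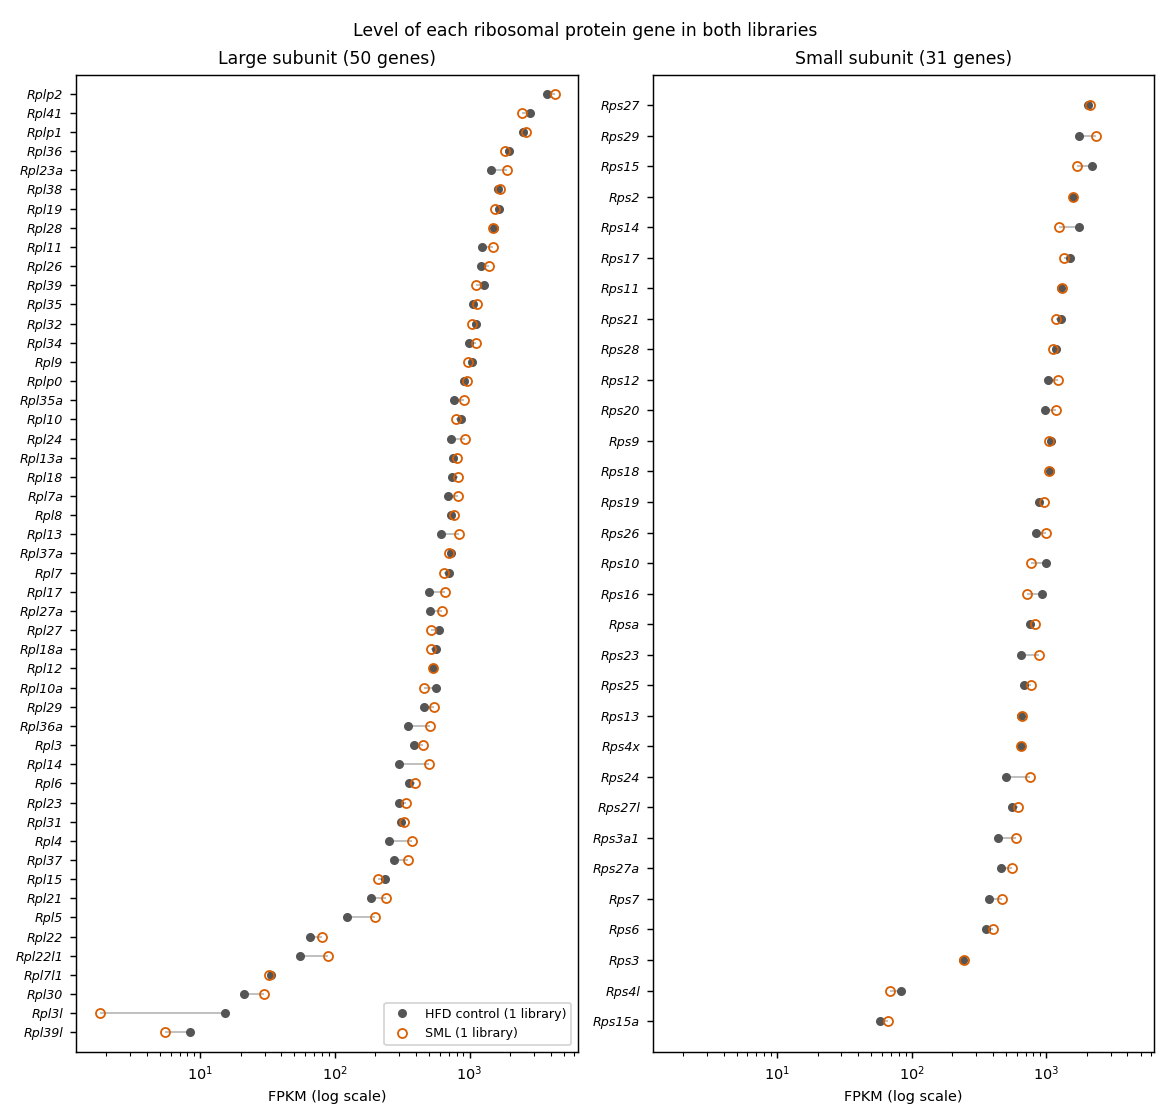
FPKM on a log scale of 81 of the 83 genes in HFD control (filled) and SML (open), in order of level within the large subunit (left) and the small subunit (right). Most pairs lie close together, and Rpl3l is the pair with the widest gap (15.4 to 1.8 FPKM).

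As a set, the genes stood slightly higher in the SML library. The median difference, SML minus HFD control on the log2(FPKM + 1) scale, was 0.11 (quartiles -0.09 to 0.28) over the 83 genes and 0.00 (-0.21 to 0.22) over all 9887 kept genes. The difference was above 0 in 53 genes and below 0 in 30. Counting error was small for most genes, with 1423 to 17190 fragments a library in the core genes other than Rpl30, and the 95% interval of the count ratio lay above 1 in 46 genes and below 1 in 24, where it did so in 25.1% and 23.5% of all kept genes. At the size rule of 1.5-fold, 4 genes (Rpl14, Rpl5, Rpl22l1 and Rps24) were higher in SML, where 5.44% of all kept genes were, and 1 gene (Rpl3l) was lower, where 5.76% of all kept genes were. The other 78 passed in neither direction, so the share that was higher lay near the background and the share that was lower lay under it.

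A smaller size rule took a gene as higher where its level in SML, as FPKM + 1, was at least 25% above that in HFD control, and as lower where HFD control was at least 25% above SML. By this 25% rule, 18 of the 83 genes (21.7%) were higher against 17% of all kept genes, and 7 (8.43%) were lower against 16.3%. Ribosomal protein genes are abundant, so the same was read against genes whose mean FPKM reached 100, a background chosen after the values had been seen. Of the 75 members at that level, 3 were higher and 0 lower by 1.5-fold, where 2.72% and 5.65% of 956 such genes were. By the 25% rule 16 (21.3%) were higher and 5 (6.67%) lower, where 9.94% and 17.5% of the 956 genes were. The count ratio's interval lay above 1 in 42 of the 75 and below 1 in 21, where 30.8% and 47.5% of the 956 did so. The median difference of the 956 genes was -0.05 and that of the 75 members was 0.11.

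**Figure D2:**
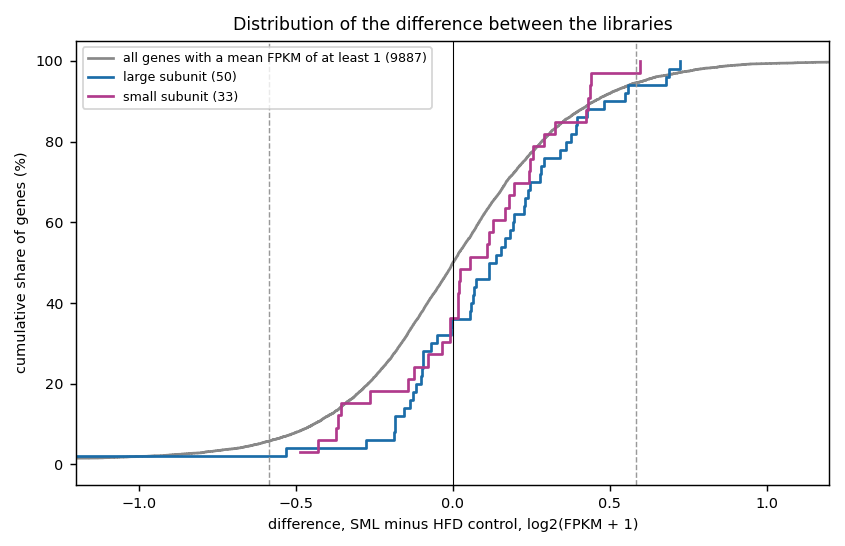
Cumulative share of genes (%) against the difference between the libraries on the log2(FPKM + 1) scale, for all kept genes, the large subunit and the small subunit, with dashed lines at 1.5-fold. The curves of both subunits lie to the right of that of all genes around 0, with medians of 0.13 (large) and 0.06 (small), and Rpl3l at -2.55 lies outside the axis.

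The large subunit had a median difference of 0.13 and the small subunit of 0.06. The quartiles were -0.10 to 0.29 and -0.08 to 0.24, and the difference between the medians was not tested. Within the 77 core genes, mean FPKM was 877.0 in the large and 955.4 in the small subunit in HFD control, and 934.2 and 973.0 in SML. The mean of the large over that of the small subunit was 0.918 in HFD control and 0.960 in SML. The tails differed more than the medians: at the 25% rule 11 of 46 core genes of the large subunit (23.9%) were higher and 0 lower. Of 31 core genes of the small subunit 6 (19.4%) were higher and 5 (16.1%) lower, near the 17% and 16.3% of all kept genes.

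Rpl14, a protein of the large subunit's outer surface, had the largest difference upward. Its level was 299.97 FPKM in HFD control against 496.03 FPKM in SML, and the ratio of scaled counts was 1.65 (95% exact binomial interval 1.57 to 1.73). Rpl5 and Rpl11 bind 5S ribosomal RNA as a particle that docks on the large subunit and, when free, holds the p53 ligase Mdm2. Rpl5 had 122.3 FPKM in HFD control against 197.6 in SML, with a ratio of 1.61 (1.54 to 1.69). Rpl11 was at 1231 and 1496 FPKM, a ratio of 1.204 (1.163 to 1.247). Both genes of the 5S particle were thus higher in SML, and Rpl11 did not reach 1.5-fold.

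The stalk genes differed little. Rplp0, the stalk's base, was at 916.4 and 957.7 FPKM with a ratio of 1.04 (1.02 to 1.07), and Rplp1 had a ratio of 1.03 (0.996 to 1.06). Rplp2 had a ratio of 1.12 (1.09 to 1.15).

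Rpl4, which with Rpl17 lines the tunnel, lay just under the size rule. Its level was 253.0 FPKM without SML and 373.4 with it, a difference of 0.56 and a ratio of 1.47 (1.41 to 1.53). Rpl17 was at 498.8 and 657.1 FPKM, and Rpl23a, at the tunnel exit, was at 1454 and 1910 FPKM, with ratios of 1.309 (1.251 to 1.369) and 1.30 (1.26 to 1.34). Rpl39, also of the tunnel, went the other way, with 1272 FPKM in HFD control against 1116 in SML and a ratio of 0.862 (0.818 to 0.909). Of the 8 genes placed at the tunnel and its exit, 3 (37.5%) were higher and 0 lower at the 25% rule, where 17% and 16.3% of all kept genes were.

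Among 6 genes at the transfer RNA sites and side stalks, only Rpl36a was higher by the 25% rule (16.7%, against 17% of all kept genes), and 0 were lower (against 16.3%). Rpl36a had 347.3 FPKM without SML and 508.0 with it, a difference of 0.55, just outside the 1.5-fold rule, where Rps24 at 0.60 was just inside it. Rpl10a, of the L1 stalk that helps spent transfer RNA leave, had the lowest difference among core genes of the large subunit, from 559.8 to 462.3 FPKM with a ratio of 0.821 (0.784 to 0.860). Of the other 27 large subunit genes, 6 (22.2%) were higher and 0 lower at the 25% rule. They include Rpl13 (616.9 and 830.5 FPKM), Rpl24 (723.8 and 928.8), Rpl21 (185.4 and 240.8) and Rpl37 (274.0 and 347.2). Rpl27 (593.0 and 521.3 FPKM), Rpl41, with a ratio of 0.867 (0.840 to 0.895), and Rpl36 (1972 and 1848 FPKM) were lower in SML without passing it.

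**Figure D3:**
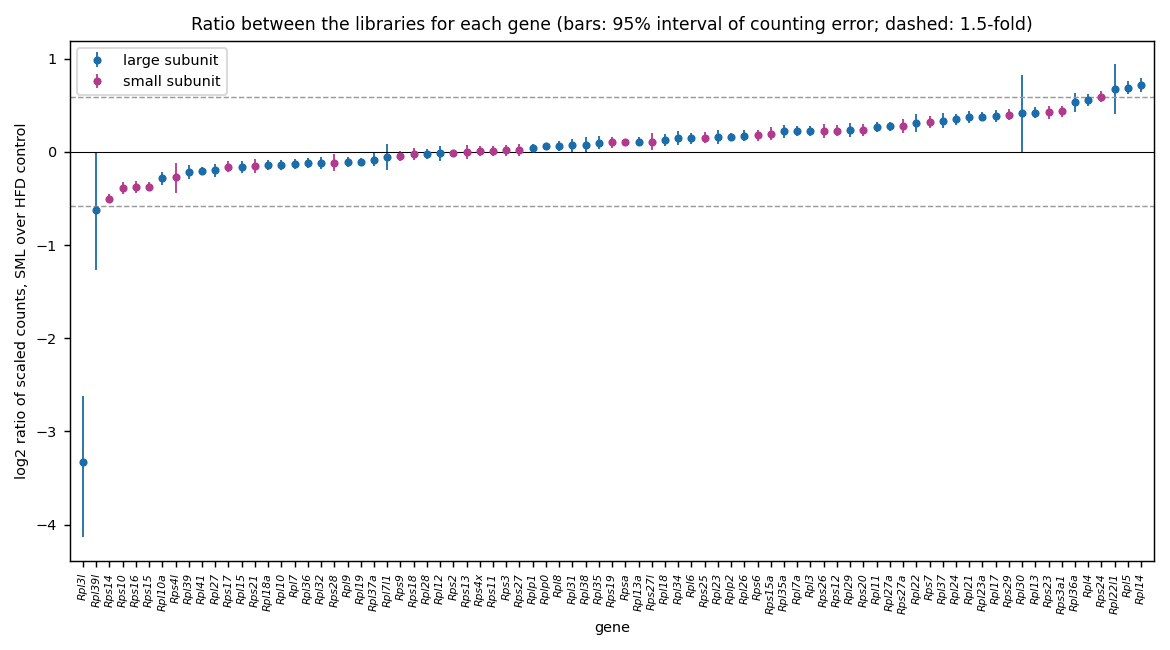
Log2 ratio of scaled counts, SML over HFD control, for 81 of the 83 genes in order, with the 95% interval of counting error as bars and 1.5-fold as dashed lines. Rpl3l stands far below the rest at a ratio of 0.0996, small subunit genes make up 4 of the next 5 places shown, and Rpl14 is highest at 1.65.

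In the small subunit Rps24, of the body, was highest, with 498.2 FPKM in HFD control against 753.6 in SML and a ratio of 1.51 (1.45 to 1.57). Its 3 assembled transcripts had ratios of 1.27 (1.15 to 1.40), 1.54 (1.44 to 1.65) and 1.57 (1.48 to 1.67), so all of them were higher in SML. Also high were Rps3a1 (437.9 and 594.6 FPKM), Rps23, which sits beside the decoding centre (646.1 and 875.3 FPKM), and Rps29 (1747 and 2342 FPKM), with ratios from 1.32 to 1.35.

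At the other end stood Rps14, Rps10, Rps16 and Rps15. Rps14, of the platform, had 1733 FPKM in HFD control against 1236 in SML, with a ratio of 0.707 (0.683 to 0.732). Rps10 was at 985.6 and 761.9 FPKM with a ratio of 0.765 (0.731 to 0.801). Rps16 was at 923.8 and 716.7 FPKM and Rps15 at 2163 and 1690 FPKM, with ratios of 0.769 (0.735 to 0.804) and 0.773 (0.747 to 0.798). None of these 4 reached 1.5-fold, and their counting intervals lay well below 1.

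Rps10, Rps15 and Rps16 belong to the head of the small subunit, the part that swings as the mRNA advances. Of 14 head genes, 4 (28.6%) were lower and 1 (Rps29, 7.14%) higher at the 25% rule, where 16.3% and 17% of all kept genes were. The median difference of the head genes was 0.004. Of 17 genes of the body and platform, 1 (Rps14, 5.88%) was lower and 5 (29.4%) higher, with a median of 0.11. The grouping into head and body was made after the values had been seen, and the head also held Rps12 (1029 and 1220 FPKM) and Rps20 (981.2 and 1170 FPKM), which were higher in SML.

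Rps6, Rpsa and Rps27a, known for roles beyond the ribosome, were higher in SML, and none of them reached 1.5-fold. Rps6, the substrate of the S6 kinases, had a ratio of 1.13 (1.09 to 1.17). Rpsa, also known as the laminin receptor, was at 760.0 and 819.6 FPKM with a ratio of 1.076 (1.052 to 1.101). Rps27a, made as a fusion with ubiquitin, was at 456.1 and 558.3 FPKM with a ratio of 1.21 (1.15 to 1.27). Further ribosomal proteins whose names the rule does not take include Fau (1106 and 921.4 FPKM), Gnb2l1, the scaffold Rack1 (456.3 and 421.7), and Rpl36al (472.5 and 487.8), and none of these 3 passed 1.5-fold.

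Paralogue copies were compared with their core genes within each library, per length. Rpl3l, the copy of Rpl3 that striated muscle uses, had 15.37 FPKM in HFD control against 1.8 in SML. That is 10.0-fold lower by scaled counts (95% exact binomial interval 6.14 to 17.5), on 232 and 17 fragments. Rpl3, which helps form the peptidyl transferase centre, was at 386.1 and 451.9 FPKM, so the copy stood at 3.98% of the core gene in HFD control and at 0.398% in SML. The difference lay mostly in 1 of the 2 Rpl3l transcripts, which went from 12.91 FPKM (HFD control) to 0.62 (SML), while the other was at 2.46 and 1.18.

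Skeletal muscle genes moved with Rpl3l. All 21 kept markers of muscle fibres were lower in SML by 1.5-fold, where 5.76% of all kept genes were. Their median difference was -3.47, and their summed level was 4722.2 FPKM without SML and 321.47 with it. None of them was listed at 0. Acta1, the muscle actin, was at 880.7 and 52.5 FPKM, and Eef1a2, the elongation factor form of muscle and neurons, at 26.0 and 1.16 FPKM. The part of muscle RNA in the Rpl3l difference was not tested. Brown adipocyte markers were present in both libraries, with Ucp1 at 8702 and 7955 FPKM. Of 11 kept ones 1 was higher and 0 lower by 1.5-fold, where 5.44% and 5.76% of all kept genes were. The difference was above 0 in 5 of them and below 0 in 6. Cox8b, at 22044.4 and 14824.1 FPKM, lay just short of the rule with a difference of -0.57. Prdm16, which was not kept, was at 1.42 and 0.41 FPKM.

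Rpl22l1, the copy of the RNA-binding protein Rpl22, had 54.9 FPKM in HFD control against 88.4 in SML, with a ratio of 1.59 (1.32 to 1.92). Rpl22 was at 65.3 and 80.1 FPKM, a ratio of 1.24 (1.16 to 1.33). The copy stood at 84.0% of Rpl22 in HFD control and at 110.4% in SML, so by FPKM the order of the pair was not the same in both libraries. The ratio of their scaled counts, which is not per length, was 0.123 and 0.158, below 1 in both. After removal of the GC and length trend the differences were 0.34 for Rpl22l1 and 0.32 for Rpl22. The intervals of their ratios, which cover counting error only, overlapped narrowly.

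Rpl36al and Rpl36a made the other pair whose order differed by FPKM. Rpl36al, a retrogene copy outside the naming rule, stood at 136% of Rpl36a in HFD control and at 96.0% in SML, as Rpl36a was higher in SML and Rpl36al was nearly level with a ratio of 1.02 (0.956 to 1.09). By fragments, not per length, the copy was above Rpl36a in both libraries, with 2111 against 1423 in HFD control and 1586 against 1513 in SML. Their coding sequences in GENCODE are 87.9% identical, so fragments of one could have been assigned to the other, which was not tested. The remaining copies kept their place. Rps27l, a p53 target, was at 27.5% and 28.9% of Rps27, and Rpl7l1 at 4.74% and 4.96% of Rpl7 (703.5 and 648.1 FPKM). Rps4l was at 13.0% and 10.7% of Rps4x (642.5 and 649.8 FPKM), and Rpl39l, a copy best known from testis, at 0.655% and 0.488% of Rpl39. Rpl39l rested on 69 and 33 fragments with a ratio of 0.650 (0.416 to 0.998), and of 8 listed male germ cell markers 0 had a row in the table.

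**Figure D4:**
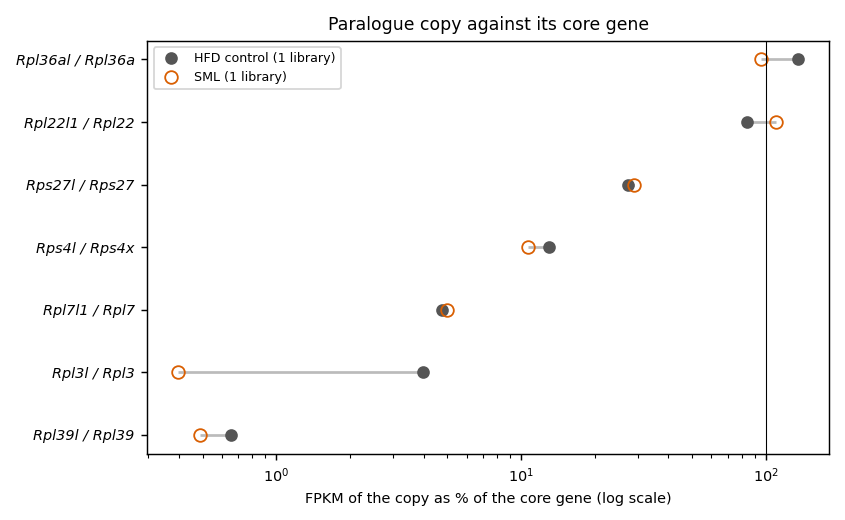
FPKM of each paralogue copy as a percentage of its core gene, on a log scale, in HFD control (filled) and SML (open), with a line at 100%. Rpl3l shows the widest gap (3.98% to 0.398%), and the pairs Rpl22l1 with Rpl22 and Rpl36al with Rpl36a lie on different sides of 100% in the libraries.

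Differences of the set went with base composition. Over the 83 genes the Spearman rho of the difference with the GC content of the matched GENCODE transcript was -0.33, and over 9524 kept genes with a value it was also -0.33, a description over genes that share both libraries. The 26 core genes of lowest GC content (41.3% to 49.3%) had a median difference of 0.25, with 21 above 0. The 26 in the middle had 0.11, and the 25 of highest GC content (54.1% to 60.8%) had -0.01, with 12 above 0. Rpl5 (42.7% GC) and Rpl22l1 (39.0% GC) were among the lowest, and Rps14, Rps10 and Rps15 among the highest. With the trend over GC content and length removed from all genes, the set's median was 0.17 with 63 genes above 0. Rpl14 (0.84) and Rps24 (0.74) still passed 1.5-fold, and Rpl5 (0.49) and Rpl22l1 (0.34) did not. With the longest coding transcript as its match, Rps24 was at 0.59. Among lower genes of the small subunit, Rps14 (-0.33) still passed the 25% rule, and Rps16 (-0.26), Rps10 (-0.22) and Rps15 (-0.21) did not. The part of GC content in the differences of single genes was not tested.

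**Figure D5:**
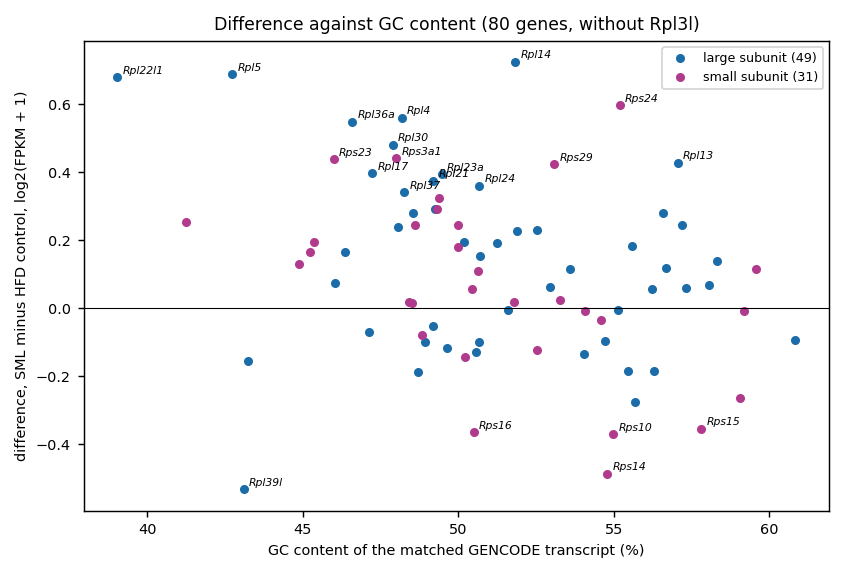
Difference between the libraries on the log2(FPKM + 1) scale against the GC content (%) of the matched transcript for 80 genes, without Rpl3l, coloured by subunit. Rpl22l1 and Rpl5 lie at upper left, Rps14, Rps10 and Rps15 at lower right, and Rpl14 and Rps24 are high at middling to high GC content. The transcript matched to Rps20 (41.3% GC) is far longer than its values imply, so its place on the axis is uncertain. The place of Rps24 depends on the match: 55.2% GC as drawn and 46.0% by the longest coding transcript.

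The wider machinery was read with the same 1.5-fold rule, by which 5.44% of all kept genes were higher and 5.76% lower. Of 77 mitochondrial ribosomal proteins, 1 (Mrpl18, with 92.2 and 143.7 FPKM) was higher and 0 lower by 1.5-fold, with a median of 0.00 against 0.11 for the cytosolic set. Of 52 translation factors, 2 (Eif3e and Eif5b) were higher and 1 (Eef1a2) lower, with a median of 0.07. With the GC and length trend removed Eif3e (0.35) and Eif5b (0.39) no longer passed. Of 17 other mRNAs known for a 5′ terminal oligopyrimidine tract, 3 were higher and 0 lower. These were Pabpc1, the poly(A) binding protein (48.0 and 103.6 FPKM), Tpt1 (1764 and 2755) and Eif3e, an initiation factor subunit counted in both lists (42.2 and 66.9), and the median of the 17 was 0.07.

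Factors that build ribosomes were counted the same way, where 5.44% of all kept genes were higher and 5.76% lower. Of 39 assembly factors of the large subunit, 1 (Rpf2, which brings in the 5S particle, 5.34 and 9.02 FPKM) was higher and 0 lower, and of 38 of the small subunit 3 were higher (Wdr46, Mphosph10 and Utp3) and 0 passed the other way. Dkc1, the pseudouridine synthase of the box H/ACA particles (3.65 and 6.42 FPKM), was the 1 of 14 nucleolar particle genes that was higher, with 0 lower. After removal of the GC and length trend Rpf2 (0.36) and Dkc1 (0.50) no longer passed. Of 20 kept genes for ribosomal RNA transcription by RNA polymerases I and III, 0 passed in either direction. With the trend removed 1 of them, Gtf3c3, passed as lower, at -0.74 against -0.45 before. By that setting 5.19% of 9524 kept genes were lower.

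Of 20 regulators of ribosomal protein synthesis, 4 were higher and 1 lower by 1.5-fold, where 5.44% and 5.76% of all kept genes were. Mdm2 had 2.26 FPKM without SML and 6.16 with it, with a count ratio of 2.69 (2.06 to 3.52), and Trp53, the gene of p53, was at 13.3 and 6.79 FPKM, with a ratio of 0.588 (0.471 to 0.730). Larp4, which binds poly(A) tails (3.24 and 7.55 FPKM), Gabpa (4.71 and 8.62) and Myc (0.69 and 1.59) were also higher. Myc rested on only 20 and 34 fragments, with a count ratio of 2.31 (1.29 to 4.24). Mtor (11.5 and 12.1 FPKM) and Larp1 (4.61 and 5.60) did not pass. With the GC and length trend removed Larp4 (0.53) and Gabpa (0.44) no longer passed, and Mdm2 (1.06), Myc (0.71) and Trp53 (-0.77) still did.

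Markers of other cell types also differed between the libraries beside these results. By 1.5-fold, 5.44% of all kept genes were higher and 5.76% lower. Of 11 macrophage markers 7 were lower and 1 higher (summed level 503.7 and 308.0 FPKM in HFD control and SML). Lower were also 4 of 5 erythroid (1975 and 1013 FPKM), 6 of 6 hepatocyte (38.6 and 6.27) and 2 of 6 endothelial markers (164.9 and 97.6), with 0 higher in each of these lists. Of 2 kept B and plasma cell markers 1 was lower, and of 4 kept proliferation markers 0 passed in either direction. Alb, Ttr, Ahsg and Fgb were listed at 0 in SML. Their part in the small differences of the ribosomal protein genes was not tested.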

How the data were processed

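Brown fat poly(A) RNA libraries were sequenced, 1 per group. The authors deposited, per transcript, FPKM and a column headed count. Per the submitters' processing notes, CASAVA 1.8 and Cufflinks (aligner not given in the sources used here) were used with build mm10. The deposited count columns are a scaled signal: low values move in steps of 0.637 (HFD control) and 0.866 (SML), and 90.8% and 90.3% of low values are whole steps within 0.1. Values divided by the step gave fragments. No sample column was left unused.

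Rows were summed per symbol. Differences are log2(FPKM + 1), which understates low genes. Kept genes had a mean FPKM of at least 1, and a gene counted as higher or lower at 1.5-fold. Ratios of scaled counts carry 95% exact conditional binomial intervals, for counting error only: PCR copies and the spread between animals are not covered. Near-identical copies and pseudogenes can share reads. The procedure was run on simulated counts with set changes, counting error and a GC trend only. Spread between animals, PCR copies and shared reads were not simulated, so it cannot speak to them. Python 3.11.15, pandas 2.3.3, scipy 1.17.1 and statsmodels 0.14.6 were used.

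Members, lists and tests were chosen with earlier results of these data known. Named were genes past 1.5-fold, the 5 highest and lowest differences and levels per subunit, paralogue pairs, the stalk and 5S genes, Rpsa, Rps27a and Rps6. Rpl13, Rpl17, Rpl21, Rpl24, Rpl37, Rps12 and Rps20 were named after their values were seen. Subunit regions, the tract of at least 8 pyrimidines and GC groups were also set after values were seen. GC content came from the GENCODE vM21 transcript nearest the length implied by FPKM and scaled count plus 153.6 bases. That offset was adopted after a match without it had moved Rps27l. Some genes that the naming rule would name are left out of the text and the plots by gene and are not reported here.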

Additional observations from a re-analysis of the deposited data

Results flagged for a closer look

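Signal appeared in 2 rows that the naming rule leaves out. Gm12191 lies on the Rpl30 locus and holds most of its fragments, and its ratio of scaled counts, SML over HFD control, was 1.228 (95% exact binomial interval 1.163 to 1.297, 2758 and 2492 fragments). The pseudogene symbol Rplp2-ps1 had a ratio of 2.446 (1.532 to 4.077) on 28 and 51 fragments, at 3.32 and 8.17 FPKM, far below the 3779 and 4293 FPKM of Rplp2. Reads of the parent gene assigned to it were not tested.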

How the results depend on the processing

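No direction of a member past 1.5-fold was reversed in 15 alternatives, 11 planned and 4 added after seeing the data, and the median over the set ran from 0.10 to 0.19. Genes higher numbered 0 at 2-fold, 18 at the 25% rule and 2 with the GC and length trend removed (also 2 with the match without the length offset, and 4 with the longest coding transcript: Rpl14, Rps24, Rpl4 and Rpl30). Genes lower numbered 2 with a pseudocount of 0.1, with the count columns and with the trend removed (also with the longest transcript), as Rpl39l joined Rpl3l, 7 at the 25% rule and 0 without the paralogue copies. The trend's removal put the large subunit median at 0.24 with each of 3 transcript matches, and the small subunit median at 0.12, or 0.13 with either other match; with the longest transcript the set's median was 0.19. Rps27l changed from 0.13 to -0.30 with the match without offset and was 0.08 and 0.04 with the others. The members' shares in HFD control and SML were 8.56% and 9.5% where mean FPKM had to reach 5, 3.65% and 3.99% by count columns, 8.59% and 9.54% by the highest row per symbol, and 8.37% and 9.28% without copies. Equal totals outside the 50 highest genes moved all genes' median by 0.05 and added Rpl36a and Rpl4. No paired analysis was possible because each group has 1 library. Depth limits Rpl39l and Rpl3l, with 33 and 17 fragments in SML.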
